A study of Mus musculus with 8 samples.

Results

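Integrins and the other receptors and adaptors of cell-matrix adhesion were followed in RNA from whole mouse colon. Members were chosen by gene symbol, under a rule set with earlier results of these data known. All genes of the deposited count table whose symbol is that of an integrin alpha chain or of an integrin beta chain from *Itgb1* to *Itgb8*, together with 20 named adhesion genes, gave 45 members of 15859 genes. They comprise 25 integrin chains, of which 7 are mainly carried by leukocytes (*Itga4*, *Itgae*, *Itgal*, *Itgam*, *Itgax*, *Itgb2* and *Itgb7*) and were set apart, 8 other matrix receptors, namely the 4 syndecans, *Ddr1*, *Ddr2*, *Cd44* and *Dag1*, and 12 proteins of the cytoplasmic face of the adhesion site. All 45 passed the filter on low counts, which left 14371 genes for testing.

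The 8 colons came from male mice of a mixed BALB/c x 129SvEV background, 2 mice in each of 4 groups. WT day 0 and *Hsf1* null day 0 mice were age-matched and received no treatment. WT day 15 and *Hsf1* null day 15 mice received 10 mg/kg of the carcinogen azoxymethane (AOM) by intraperitoneal injection at 8 weeks of age, and from day 7 were given 1.5% dextran sulfate sodium (DSS), an irritant of the colonic epithelium, in the drinking water for 5 days. The labels give an age of 10 weeks for all mice, whereas the series text gives 9.5 weeks. Day 15 is taken from the sample names in the labels, although the protocol in the labels ends directly after DSS. The null allele is carried in all cells of the mouse from birth, so that epithelium, stroma and leukocytes all lack it. Each library is 1 mouse, with 2 mice per group. The p-values rest on a spread between mice that was estimated over all 4 groups, with information shared across genes.

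Integrins are obligate heterodimers of an alpha and a beta chain that bind extracellular matrix or, on leukocytes, counter-receptors on other cells. The pair sets the ligand: *Itgb1* joins the collagen- and laminin-binding alpha chains, *Itgav* chains bind the RGD motif of fibronectin, vitronectin and latent TGF-beta, *Itga6* with *Itgb4* forms the hemidesmosomes of epithelium, *Itgb2* chains bind ICAMs, and *Itga4* with *Itgb7* binds the gut addressin MAdCAM-1. Inside the cell, talins and kindlins switch integrins to the active state, while vinculin, paxillin, focal adhesion kinase and the ILK-parvin complex link them to actin and to signaling.

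Promoters are given first for the called members found in the RefSeq promoter table and for *Itgam*, the member with the largest genotype difference at day 15. Of the 45 members, 33 were found there, with 41 promoters among 32851, and *Itgb2*, *Itgb3* and *Itgal* have no entry. The stretches run 5′ to 3′ over up to 250 bases before the RefSeq start on GRCm38.p6 and stop before the annotated gene, with lower case throughout except for motif matches. Capitals mark GAGGAA, the core bound by ETS factors such as PU.1, or the SRF CArG box, searched on both strands.
Itgb7: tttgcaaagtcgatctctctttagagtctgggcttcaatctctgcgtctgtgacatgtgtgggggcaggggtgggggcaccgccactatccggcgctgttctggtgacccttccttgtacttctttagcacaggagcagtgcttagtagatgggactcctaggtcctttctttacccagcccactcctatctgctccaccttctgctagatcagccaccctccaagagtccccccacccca
Fermt3: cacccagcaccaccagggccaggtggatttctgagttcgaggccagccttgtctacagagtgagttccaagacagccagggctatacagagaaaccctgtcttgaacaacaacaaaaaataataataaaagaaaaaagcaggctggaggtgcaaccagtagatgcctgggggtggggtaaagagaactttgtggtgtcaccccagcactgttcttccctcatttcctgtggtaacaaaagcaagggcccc
Itgam: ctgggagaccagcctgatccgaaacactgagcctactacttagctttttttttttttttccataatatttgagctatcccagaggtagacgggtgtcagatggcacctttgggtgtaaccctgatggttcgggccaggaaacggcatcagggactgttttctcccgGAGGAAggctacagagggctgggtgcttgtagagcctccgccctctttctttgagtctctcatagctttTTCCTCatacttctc
Fermt2: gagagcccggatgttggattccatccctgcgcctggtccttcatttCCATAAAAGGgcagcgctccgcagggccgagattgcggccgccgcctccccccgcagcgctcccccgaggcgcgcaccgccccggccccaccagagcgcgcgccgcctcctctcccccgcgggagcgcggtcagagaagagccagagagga
Itga8: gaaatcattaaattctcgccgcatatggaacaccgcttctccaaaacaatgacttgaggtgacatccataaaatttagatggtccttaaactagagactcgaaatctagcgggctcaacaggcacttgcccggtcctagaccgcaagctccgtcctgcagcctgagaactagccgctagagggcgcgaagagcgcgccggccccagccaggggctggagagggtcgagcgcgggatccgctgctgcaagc
These lie at chr15:102231945-102232185 (minus strand) for *Itgb7*, chr19:7019470-7019719 (minus strand) for *Fermt3*, chr7:128062390-128062639 (plus strand) for *Itgam*, chr14:45530119-45530315 (minus strand) for *Fermt2* and chr2:12301945-12302194 (minus strand) for *Itga8*. *Itgam* holds GAGGAA at 2 places, and *Fermt2* holds a CArG box at position -204 from its RefSeq start. GAGGAA was found in 12 member promoters (29.3%) against 23.3% of all promoters of that length, and the CArG box in 3 member promoters (7.32%, those of *Fermt2*, *Itgb6* and *Vcl*) against 1.47%. Matches were counted over all 250 bases before the RefSeq start, also where these lie inside the annotated gene. That holds for the CArG box of *Itgb6* and for GAGGAA in *Itga3*, *Itga2b*, *Itgb6*, *Parvg* and *Tln1*.

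A pair of inverted heat shock elements was searched as GAANNTTC and as TTCNNGAA, each of which reads alike on both strands, because *Hsf1* is the deleted gene. The members holding such a pair are printed next, with the pair in capitals (GAGGAA in *Itga5* and the CArG box in *Vcl* are also in capitals).
Itgb5: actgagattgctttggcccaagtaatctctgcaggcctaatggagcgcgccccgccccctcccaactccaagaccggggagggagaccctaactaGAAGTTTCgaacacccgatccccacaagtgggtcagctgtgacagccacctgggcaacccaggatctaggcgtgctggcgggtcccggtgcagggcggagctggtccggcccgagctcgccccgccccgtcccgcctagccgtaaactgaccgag
Itga5: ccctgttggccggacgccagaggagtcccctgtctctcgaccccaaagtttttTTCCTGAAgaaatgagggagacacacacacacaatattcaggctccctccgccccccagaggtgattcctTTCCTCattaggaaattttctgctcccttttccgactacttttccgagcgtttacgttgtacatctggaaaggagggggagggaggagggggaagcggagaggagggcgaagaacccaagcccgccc
Vcl: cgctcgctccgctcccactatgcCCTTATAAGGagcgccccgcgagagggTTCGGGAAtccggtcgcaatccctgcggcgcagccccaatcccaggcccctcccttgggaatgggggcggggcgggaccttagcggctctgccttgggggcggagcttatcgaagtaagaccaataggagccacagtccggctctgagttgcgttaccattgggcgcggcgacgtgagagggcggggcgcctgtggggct
GAANNTTC was found in 1 member promoter, that of *Itgb5* at chr16:33829415-33829664 (plus strand) and position -155, against 6.69% of all promoters. TTCNNGAA was found in 2, those of *Itga5* at chr15:103366792-103367041 (minus strand), position -197, and *Vcl* at chr14:20929148-20929397 (plus strand), position -200, against 7.17%. A match is a description of letters in this window and was not tested for binding.

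*Hsf1* itself (chr15:76477422-76501913, GRCm38) served as the check of the labels. It measured 40.5 and 36.5 CPM (read counts scaled to TMM-adjusted library sizes, the usual edgeR unit) in the 2 WT day 0 mice, 14.0 and 11.9 in *Hsf1* null day 0 mice, 50.5 and 45.9 in WT day 15 mice and 13.5 and 9.09 in *Hsf1* null day 15 mice. Both WT groups lay above both null groups without overlap, at 4.27-fold at day 15 (log2 fold change 2.10, SE 0.30, edgeR's quasi-likelihood test with Benjamini-Hochberg adjustment, adjusted p = 0.0137) and 2.96-fold at day 0, where it was not called (log2 fold change 1.57, SE 0.30, adjusted p = 0.774). Reads over the whole gene were counted, so the remaining null signal cannot be placed inside or outside the deleted part.

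Total counts per library ran from 2553348 to 12440257, with replicate 2 of WT day 0 and of *Hsf1* null day 0 at 2553348 and 2675976 and the other 6 libraries at 7379442 or more. Members took 0.342% to 0.523% of the counts of a library. Epithelial markers (8 of 8 detected in all mice) summed to between 10110 and 24020 CPM, so the samples carried the RNA of the labelled tissue. RNA of other layers was also present: smooth muscle markers summed to 2146 to 9926 CPM, leukocyte markers to 206.8 to 2365 CPM and adipocyte markers to 2.947 to 110.9 CPM. In whole tissue, fewer cells of a type and less RNA per cell cannot be told apart.

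Per kilobase of merged exons, the scale on which genes can be compared, the mean level of members over the 8 mice spanned 0.112 to 179.9 CPM per kb. *Sdc4*, a heparan sulfate receptor of focal adhesions, stood first, followed by *Sdc1*, the syndecan of epithelium, at 63.1, *Itgb1*, the shared partner of most matrix-binding alpha chains, at 62.1, *Ilk* at 43.1, *Itgb4* at 39.1 and *Itga3*, a laminin-binding chain, at 34.6. *Sdc1* and *Itgb1* exchanged places between groups, with 71.9 ± 1.09 (SD, n = 2) for *Itgb1* against 60.4 ± 15.6 for *Sdc1* in WT day 0 mice and 62.5 ± 5.34 against 76.4 ± 12.9 in WT day 15 mice, values within the spread of either gene or close to it. *Itgb8* (0.112) and the platelet chain *Itga2b* (0.330) were lowest.

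Within classes, the highest and lowest levels per kb over all mice were as follows. Among collagen-binding alpha chains *Itga1* was highest at 2.03 and *Itga10* lowest at 0.483. The laminin-binding chains ran from *Itga3* down to *Itga7*, the chain of muscle, at 1.78. Among RGD-binding chains *Itga5*, the fibronectin receptor, was highest at 18.6, and among leukocyte integrins *Itgb2* was highest at 15.7 and *Itgae* lowest at 1.85. *Sdc3* was the lowest syndecan at 8.17 and *Ddr2*, a collagen receptor of stroma, the lowest other receptor at 5.29, below *Dag1* at 32.1. *Tln1* (27.2) and *Tln2* (2.35) bounded the talin, kindlin and vinculin class, and *Ilk* and *Parvb* (3.46) the class of kinases, paxillin and parvins. With the longest transcript in place of merged exons, the order of the first 3 and of the last member was kept, but *Itga6* (53.1) stood above *Itga3* (40.6) and *Pxn* (55.8) above *Ilk* (51.9), so these 2 class maxima depend on the length used.

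**Figure D1:**
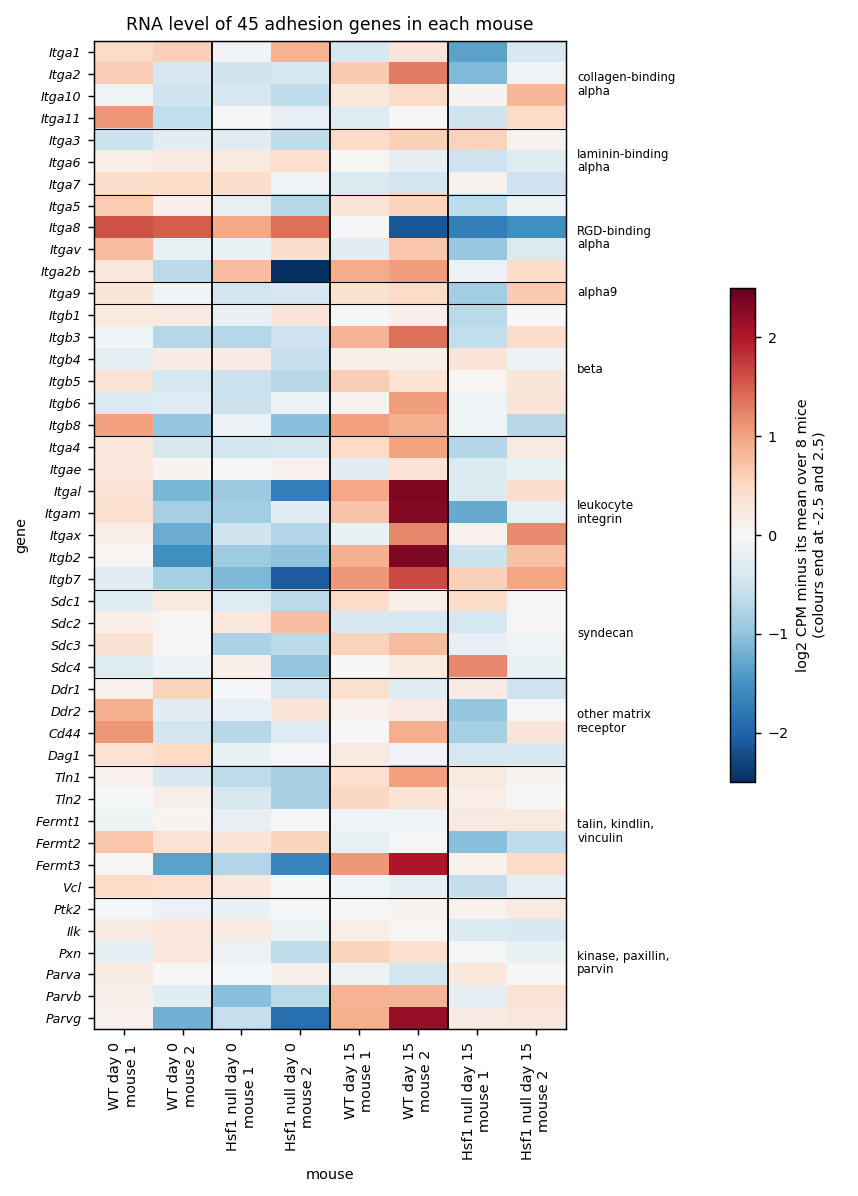
Level of the 45 members (rows, by class) in each of the 8 mice (columns), as log2 CPM minus the mean of the gene over all mice, red for above and blue for below. *Itgal*, *Itgam*, *Itgb2*, *Fermt3* and *Parvg* are darkest red in WT day 15 mouse 2, and *Itga8* is red at day 0 and blue at day 15, palest in WT mouse 1.

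The first question was which members changed with AOM-DSS in WT mice. Of the members, 4 rose and 0 fell: the leukocyte chains *Itgb2* and *Itgb7*, the leukocyte kindlin *Fermt3*, which activates *Itgb2* and *Itgb3* integrins, and *Itgb3*, the beta chain of the vitronectin receptor and of the platelet receptor. All genes tested gave 7.74% called in this comparison (3.47% higher, 4.27% lower), where a gene is called past 2 thresholds, an adjusted p of 0.05 and a log2 fold change of 1 in either direction. Of the 45 members, 21 lay higher without overlap at day 15 and 11 lower, against 31% and 31.5% of all genes, and 27 had a log2 fold change above 0, against 50.2%.

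*Itgb2*, the common beta chain of LFA-1 and Mac-1, measured 33.5 and 11.1 CPM at day 0 and 61.0 and 166 at day 15 in WT mice. Both treated mice lay above both untreated mice, and the second treated mouse was far above the first. The change was 4.86-fold (log2 fold change 2.28, SE 0.61, edgeR, adjusted p = 0.0479), and its size depended on single mice, with a log2 fold change of 3.35 without WT day 0 replicate 1, 2.83 without WT day 15 replicate 1, 1.77 without WT day 0 replicate 2 and 1.39 without WT day 15 replicate 2. In *Hsf1* null mice *Itgb2* measured 17.6 and 16.2 CPM at day 0 and 22.5 and 54.8 at day 15, again without overlap, and did not pass the test (log2 fold change 1.19, SE 0.60, edgeR, adjusted p = 0.200).

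*Fermt3* (kindlin-3) measured 26.9 and 10.3 CPM in WT day 0 mice and 55.9 and 107 in WT day 15 mice. The groups did not overlap, with a 4.20-fold change (log2 fold change 2.07, SE 0.48, edgeR, adjusted p = 0.0326), which was 2.98 without WT day 0 replicate 1 and 1.53 without WT day 15 replicate 2. In *Hsf1* null mice it went from 15.7 and 8.27 CPM to 28.4 and 36.9, which did not pass the test (log2 fold change 1.39, SE 0.49, edgeR, adjusted p = 0.0836).

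*Itgb7*, the beta chain of the gut-homing and the intraepithelial lymphocyte integrins, was the one member called in both genotypes. It measured 9.41 and 6.35 CPM in WT day 0, 24.4 and 36.5 in WT day 15, 5.09 and 2.52 in *Hsf1* null day 0 and 17.5 and 23.0 in *Hsf1* null day 15 mice. All 4 treated mice lay above all 4 untreated mice. The rise was 3.75-fold in WT mice (log2 fold change 1.91, SE 0.41, edgeR, adjusted p = 0.0265) and 4.93-fold in *Hsf1* null mice (2.30, SE 0.43, adjusted p = 0.0167, and 3.0 without *Hsf1* null day 0 replicate 1), and the difference between these changes did not pass the test (-0.39, SE 0.58, adjusted p = 0.875).

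*Itgb3* measured 22.0 and 14.3 CPM in WT day 0 and 43.0 and 62.0 in WT day 15 mice. It rose 2.84-fold (log2 fold change 1.50, SE 0.40, edgeR, adjusted p = 0.0466). Its values in *Hsf1* null mice, 14.5 and 16.5 CPM at day 0 and 15.5 and 32.2 at day 15, overlapped. Its alpha partners were not called: *Itgav* measured 96.9 and 50.0 CPM in WT day 0 and 47.2 and 91.5 in WT day 15 mice, and *Itga2b*, the platelet partner, 1.76 and 0.794 and then 2.87 and 3.17 CPM. The second *Hsf1* null day 0 library held no count of *Itga2b*, which allows up to 1.08 CPM (3 counts). On the per-kb scale *Itga2b* reached at most 0.191 of *Itgb3* in all 8 mice, and the ratio of *Itgav* to *Itgb3* was 1.92 to 2.54 in untreated and 0.604 to 1.03 in treated mice.

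**Figure D2:**
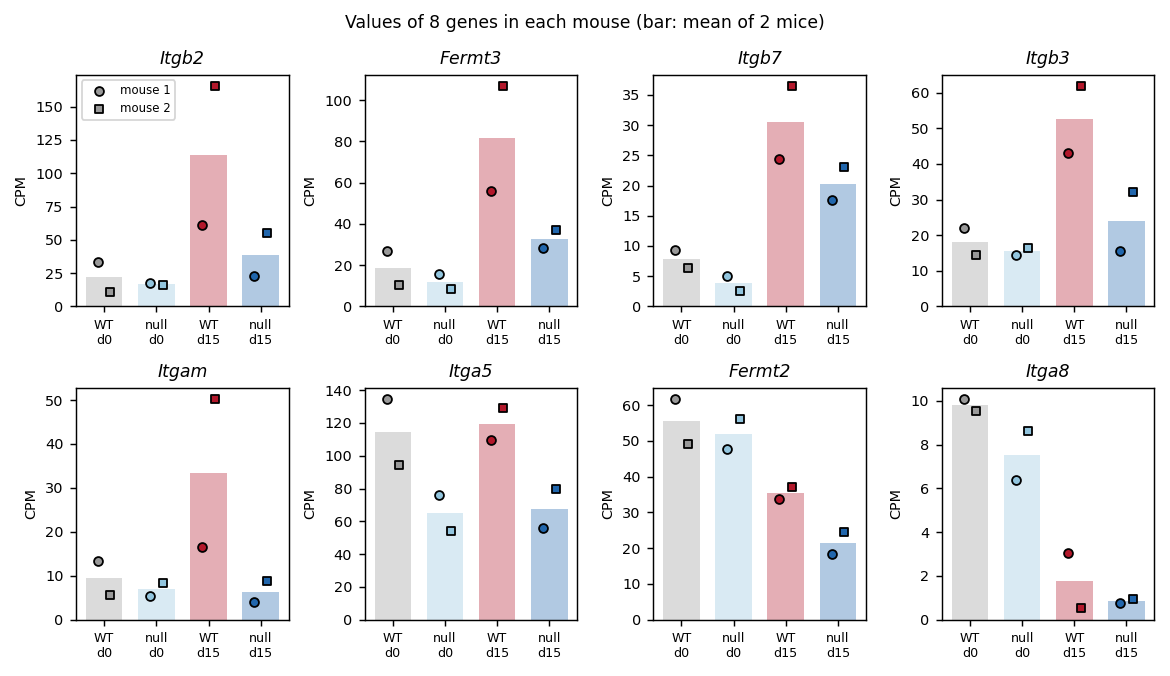
CPM of 8 members in each mouse (circle, mouse 1; square, mouse 2; bar, mean of 2 mice; WT d0, null d0, WT d15 and null d15 are the 4 groups; each panel has its own scale from 0). *Itgb2*, *Fermt3*, *Itgb7* and *Itgb3* rose in WT mice at day 15, *Fermt2* and *Itga8* are low at day 15, and *Itga5* is higher in WT than in *Hsf1* null mice at either day.

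The 4 calls in WT mice were lost when the second mouse of either group was left out. Calls also moved with other single libraries left out. Over the alternatives the log2 fold change ran from 1.39 to 3.35 for *Itgb2*, 1.53 to 2.98 for *Fermt3*, 1.59 to 2.26 for *Itgb7* and 1.22 to 1.87 for *Itgb3*. A fit that leaves a group with 1 mouse takes the spread from the other groups. DESeq2 called 8 members, 7 higher and *Itga8* lower, where it called 12.1% of all genes. With the replicate number as a block 1 member was called, *Itgb7*, against 6.04% of all genes, and with the numbers of the WT day 0 mice exchanged in the block, chosen after seeing the data, 8 were called, against 12.9%.

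Outside the leukocyte integrins, *Fermt3* and *Parvg*, *Itgb3* was the 1 call among 36 members, and their median log2 fold change was 0.09, against 0.00 over all genes. The 9 leukocyte members had a median of 1.91 and 7 of them lay higher without overlap, against 31% of all genes. In the same comparison edgeR called higher 3 of 5 neutrophil, 4 of 7 macrophage, 1 of 6 T cell, 0 of 4 B cell and 1 of 6 pan-leukocyte markers (5, 6, 6, 3 and 4 at an unadjusted p under 0.05). All genes gave 3.47% called higher and 27.6% at that unadjusted p (13.8% higher). The part of these markers in the values of the leukocyte members was not tested. *Itga3*, which with *Itgb1* binds laminin-332, measured 128 and 156 CPM in WT day 0 and 259.6 and 285 in WT day 15 mice, a 1.92-fold difference that missed the thresholds (log2 fold change 0.94, SE 0.26, edgeR, adjusted p = 0.0546). *Itga8*, the nephronectin receptor chain of muscle and mesenchyme, measured 10.1 and 9.53 CPM and then 3.04 and 0.528, the last from 5 counts (log2 fold change -2.43, SE 0.68, edgeR, adjusted p = 0.0568), and the log2 fold change was -4.18 without WT day 15 replicate 1 and -1.69 without WT day 15 replicate 2.

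In *Hsf1* null mice 3 members were called between day 0 and day 15, *Itgb7* higher and *Fermt2* and *Itga8* lower. Over all genes 11.8% were called (5.3% higher, 6.48% lower). Of the members, 17 lay higher without overlap and 10 lower, against 31% and 30.3% of all genes.

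*Fermt2* (kindlin-2), the kindlin of stromal and muscle cells, measured 47.6 and 56.1 CPM in *Hsf1* null day 0 mice and 18.5 and 24.5 in *Hsf1* null day 15 mice. The groups did not overlap and the level fell to 0.416 of its day 0 value (log2 fold change -1.27, SE 0.27, edgeR, adjusted p = 0.0215). WT mice had 61.7 and 49.2 CPM at day 0 and 33.8 and 37.0 at day 15 (log2 fold change -0.66, SE 0.26, edgeR, adjusted p = 0.140). *Fermt1*, the epithelial kindlin, had a log2 fold change of 0.35 in *Hsf1* null and -0.07 in WT mice, neither of which passed the test.

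*Itga8* measured 6.41 and 8.62 CPM in *Hsf1* null day 0 mice (78 and 24 counts) and 0.776 and 0.936 in *Hsf1* null day 15 mice (5 and 7 counts). It fell to 0.118 of its day 0 level (log2 fold change -3.08, SE 0.76, edgeR, adjusted p = 0.0313). Per kb, *Itga8* was 0.0155 to 0.0189 of its partner *Itgb1* in untreated mice and 0.00108 to 0.00704 in treated mice, while *Itgb1* itself had log2 fold changes of -0.20 (WT) and -0.39 (*Hsf1* null). Thinning all libraries to the smallest total left *Itga8* short of the threshold in *Hsf1* null mice (log2 fold change -2.85, adjusted p = 0.0673).

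Smooth muscle markers were read beside *Fermt2* and *Itga8*, which muscle and stroma express. They summed to 7256 and 9926 CPM in WT day 0, 3717 and 2146 in WT day 15, 7130 and 6980 in *Hsf1* null day 0 and 5344 and 6122 in *Hsf1* null day 15 mice. In WT mice 6 of 9 were called lower, led by *Actg2* (log2 fold change -2.28), *Tagln* (-1.89) and *Synpo2* (-1.83). In *Hsf1* null mice, the genotype in which both members were called, 1 of 9 was called lower, *Synpo2* (-1.62). There *Myh11*, *Des*, *Cnn1*, *Tagln* and *Lmod1* also lay lower without overlap at day 15, while *Acta2*, *Actg2* and *Smtn* overlapped. At day 15 the log2 fold change of WT over *Hsf1* null mice was below 0 for 9 of 9 markers, with 0 called by edgeR and 6 at an unadjusted p under 0.05, and above 0 for *Fermt2* (0.72), which was not called. *Itga8* overlapped between the genotypes at day 15. Among stromal markers in *Hsf1* null mice, 1 of 6 of fibroblasts was called lower at day 15 (*Dcn*, log2 fold change -2.18, edgeR, adjusted p = 0.0445) with 3 of 6 below 0, and 0 of 5 endothelial markers were called, with 4 of 5 below 0 and a median of -1.07. The part of these markers in the values of *Fermt2* and *Itga8* was not tested. Vinculin (*Vcl*), which is abundant in muscle, had log2 fold changes of -0.61 (WT) and -0.55 (*Hsf1* null) and was not called.

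Without *Hsf1* null day 0 replicate 2 or *Hsf1* null day 15 replicate 2, 0 members were called in *Hsf1* null mice, and without *Hsf1* null day 15 replicate 1 the call of *Itgb7* was the 1 left. DESeq2 called 5 members, where it called 15.3% of all genes. The leukocyte chains other than *Itgb7* were not called in *Hsf1* null mice: *Itgal* had a log2 fold change of 1.32 (SE 0.60) and *Itgax* 1.36 (SE 0.57), while *Itgam* was at -0.06 (SE 0.64).

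**Figure D3:**
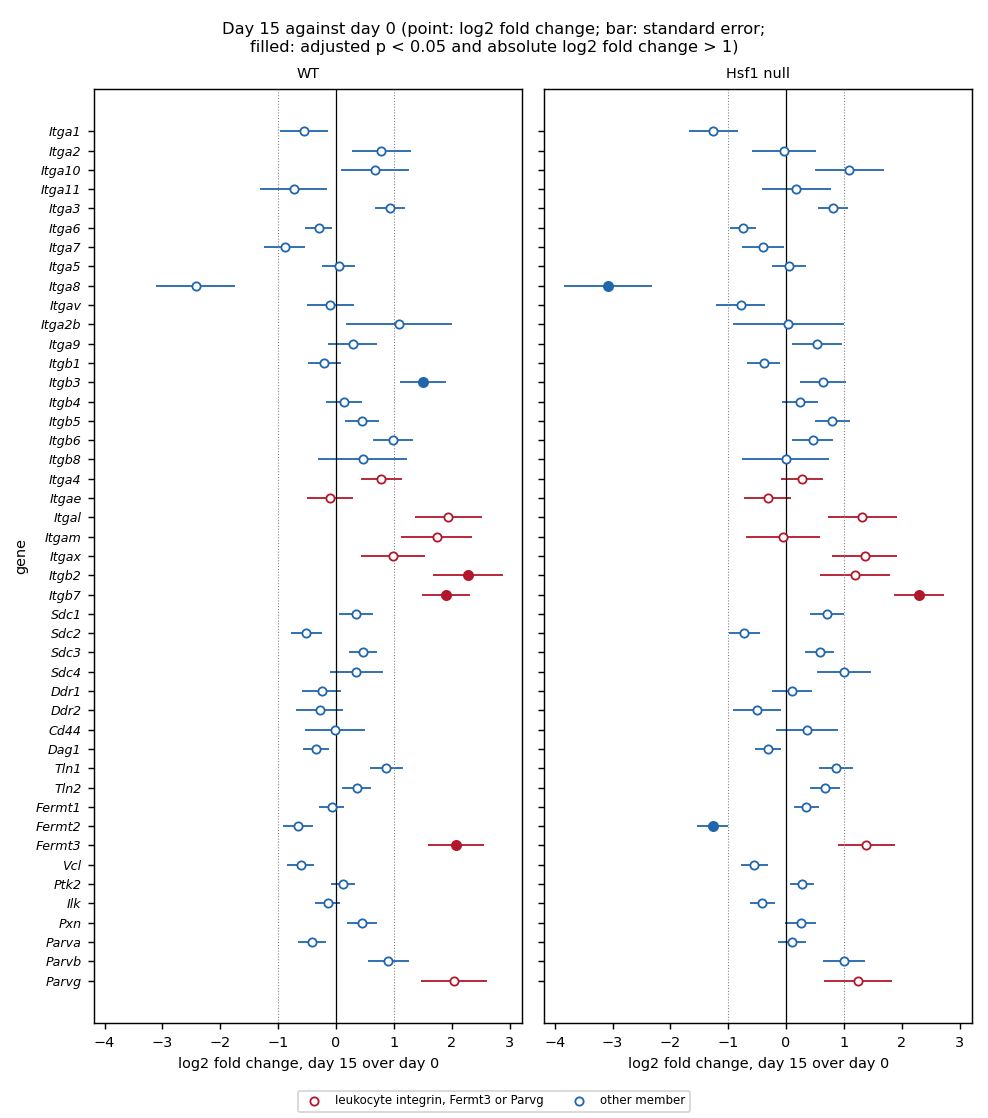
Log2 fold change (horizontal axis) of each member (vertical axis) from day 0 to day 15 in WT mice, left, and *Hsf1* null mice, right, with standard errors as bars. Filled points passed both thresholds: *Itgb3*, *Itgb2*, *Itgb7* and *Fermt3* in WT mice and *Itga8*, *Itgb7* and *Fermt2* in *Hsf1* null mice.

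WT and *Hsf1* null mice were next compared at day 15, the comparison closest to the purpose of the study. Of the 45 members, edgeR called 0 (against 3.17% of all genes, 1.25% higher and 1.91% lower in WT mice), and DESeq2 called 4, *Itgam*, *Itgal*, *Itgb2* and *Fermt3*, all higher in WT mice, where it called 8.33% of all genes. At an unadjusted p under 0.05 the count was 12, all higher in WT mice, where all genes gave 23.2% (11.6% higher and 11.6% lower). The log2 fold change was above 0 for 36 of 45 members, against 52.1% of all genes, with a median of 0.53, against 0.04 over all genes. Without overlap, 24 members were higher and 3 lower in WT mice, against 28.6% and 26.3% of all genes.

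*Itgam*, the CD11b chain of Mac-1 on neutrophils, monocytes and macrophages, had the largest log2 fold change. It measured 16.6 and 50.3 CPM in WT day 15 mice and 4.03 and 8.69 in *Hsf1* null day 15 mice, without overlap, a 5.21-fold difference (log2 fold change 2.38, SE 0.62, edgeR, adjusted p = 0.0646). Its size depended on single mice: the log2 fold change was 1.38 without WT day 15 replicate 2, 1.93 without *Hsf1* null day 15 replicate 1, 2.97 without WT day 15 replicate 1 and 3.04 without *Hsf1* null day 15 replicate 2. Its untreated values were 13.4 and 5.56 CPM in WT mice and 5.50 and 8.27 in null mice. *Itgal*, the alpha chain of LFA-1, measured 31.5 and 81.2 CPM against 12.6 and 21.9 (log2 fold change 1.70, SE 0.57, adjusted p = 0.115), and *Itgb2*, their partner, 61.0 and 166 against 22.5 and 54.8 (1.55, SE 0.58, adjusted p = 0.152). With 1 mouse left out the log2 fold change of *Itgal* ran from 0.87 (without WT day 15 replicate 2) to 2.23 (without WT day 15 replicate 1), and that of *Itgb2* from 0.66 (without WT day 15 replicate 2) to 2.33 (without *Hsf1* null day 15 replicate 2).

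*Itgax* (CD11c) of dendritic cells and macrophages measured 21.6 and 56.9 CPM in WT day 15 and 26.7 and 56.4 in *Hsf1* null day 15 mice, which overlapped (log2 fold change -0.09, SE 0.54). It was the lowest of the 7 leukocyte integrins in this comparison. On the per-kb scale *Itgax* was 0.225 and 0.218 of *Itgb2* in WT day 15 mice and 0.754 and 0.654 in *Hsf1* null day 15 mice, with 0.526 to 0.630 in the 4 untreated mice. *Itgam* was 0.166 and 0.184 of *Itgb2* in WT day 15 and 0.109 and 0.0963 in *Hsf1* null day 15 mice, all below the 0.190 to 0.311 of the untreated mice. These ratios were not tested.

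*Parvg*, the parvin of blood cells, measured 21.4 and 52.5 CPM in WT day 15 mice and 13.0 and 13.8 in *Hsf1* null day 15 mice (log2 fold change 1.46, SE 0.55, edgeR, adjusted p = 0.153), and *Fermt3* 55.9 and 107 against 28.4 and 36.9 (1.32, SE 0.47, adjusted p = 0.133). The 9 leukocyte members together had a median log2 fold change of 1.32 and 7 of 9 higher without overlap, against 28.6% of all genes. Without WT day 15 replicate 2 the log2 fold change was 0.68 for *Parvg* and 0.78 for *Fermt3*. The remaining 36 had a median of 0.41, with 17 higher and 3 lower without overlap and 28 above 0, against 28.6%, 26.3% and 52.1% of all genes.

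Leukocyte markers were read beside these members. At day 15 edgeR called 0 of the 6 pan-leukocyte markers between genotypes (3 higher in WT mice at an unadjusted p under 0.05), and 6 of 6 log2 fold changes were above 0. They summed to 896.9 and 2365 CPM in WT day 15, 570.3 and 954.3 in *Hsf1* null day 15, 629.9 and 206.8 in WT day 0 and 319.8 and 216.3 in *Hsf1* null day 0 mice, and none of them was at 0 in any library. The summed leukocyte integrins were 0.260 and 0.213 of these markers in WT day 15 mice and 0.211 and 0.242 in *Hsf1* null day 15 mice, against 0.279 to 0.427 in untreated mice. Neutrophil markers summed to 114.9 and 483.8 CPM in WT day 15 mice and 6.204 and 22.60 in *Hsf1* null day 15 mice, and 3 of 5 tested were called higher in WT mice, led by *S100a8* at a log2 fold change of 6.20. Macrophage markers summed to 1120.0 and 1349 against 307.7 and 561.1 CPM with 2 of 7 called (*C1qa* at 2.16 and *C1qb* at 1.83). T cell markers summed to 101.5 and 175.1 against 44.21 and 76.64 CPM, and B cell markers to 398.0 and 831.2 against 170.2 and 194.2 CPM, with 0 called by edgeR (2 of 6 and 2 of 4 at an unadjusted p under 0.05). Their part in the genotype differences of the leukocyte integrins was not tested.

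**Figure D4:**
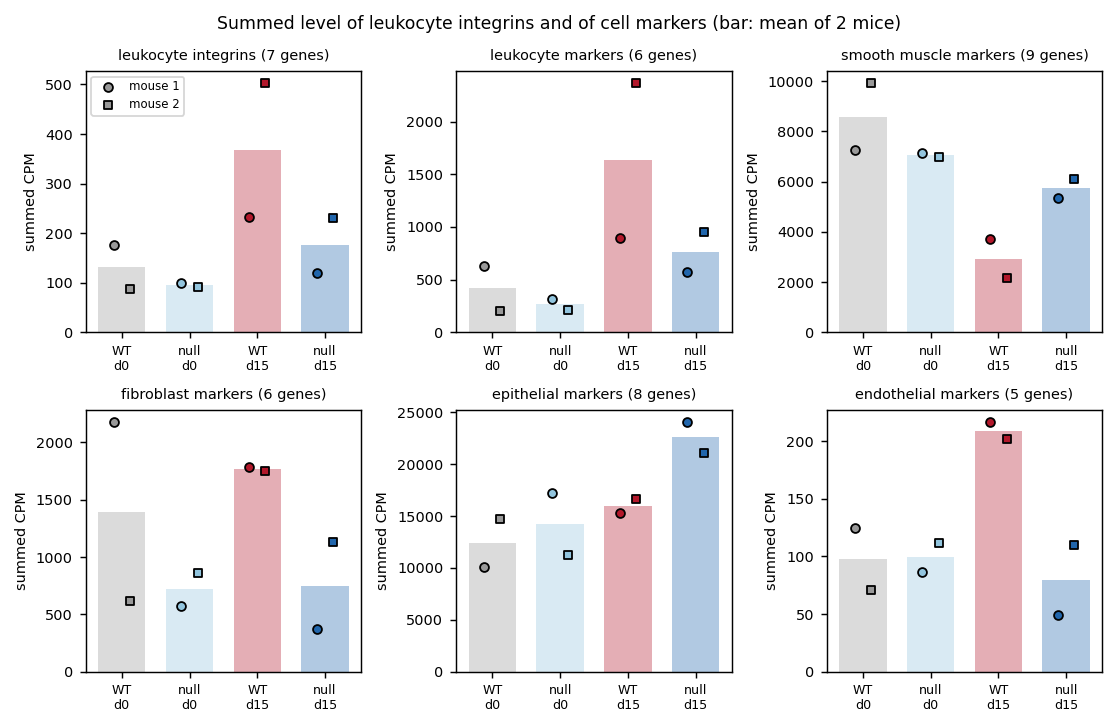
Summed CPM of the 7 leukocyte integrins and of 5 marker lists in each mouse (circle, mouse 1; square, mouse 2; bar, mean of 2 mice; the panels have separate scales from 0). Leukocyte integrins and leukocyte markers are both highest in WT day 15 mouse 2 (502.8 and 2365 CPM), smooth muscle markers are lowest in the WT day 15 mice, and fibroblast and endothelial markers are higher in WT than in *Hsf1* null mice at day 15.

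Among matrix-binding alpha chains at day 15, *Itga2*, the collagen receptor of epithelium and platelets, had the largest log2 fold change. It measured 9.48 and 14.997 CPM in WT mice and 2.64 and 5.48 in null mice (log2 fold change 1.58, SE 0.53, edgeR, adjusted p = 0.116), without overlap. Over the alternatives its log2 fold change ran from 1.14 to 2.21. By contrast *Itga11*, the collagen receptor of fibroblasts, was at -0.24 (SE 0.58). Laminin-binding chains ran from -0.24 for *Itga7* to 0.31 for *Itga6*. Over the alternatives both *Itga11* (-0.68 to 0.375) and *Itga7* (-0.52 to 0.10) had values on both sides of 0. The RGD-binding chains ran from 0.82 for *Itga5* to 1.07 for *Itga8*, but *Itga8* overlapped and its direction rested on WT day 15 replicate 1, without which it was -0.68. *Itga9*, the tenascin and osteopontin receptor, was at 0.35, with 34.8 and 37.1 CPM in WT against 14.4 and 41.9 in *Hsf1* null mice, which overlapped, and at -0.23 without *Hsf1* null day 15 replicate 1.

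*Itga5*, the fibronectin receptor chain, measured 109.5 and 129 CPM in WT day 15, 56.0 and 79.4 in *Hsf1* null day 15, 135 and 94.5 in WT day 0 and 76.2 and 53.9 in *Hsf1* null day 0 mice. All 4 WT mice lay above all 4 *Hsf1* null mice. The log2 fold changes were 0.82 (SE 0.29, edgeR, adjusted p = 0.132) at day 15 and 0.81 (SE 0.29, adjusted p = 0.774) at day 0. *Itga5* was singled out after its values were seen. Its promoter, printed above, holds the TTCNNGAA pair, and the gene lies 26.842 Mb from *Hsf1* on the same chromosome.

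Beta chains ran at day 15 from 0.01 for *Itgb4*, the hemidesmosome chain, to 1.60 for *Itgb8*, a TGF-beta-activating chain. *Itgb4* and *Itgb6* overlapped and had values on both sides of 0 with a library left out, down to -0.19 for *Itgb4* without *Hsf1* null day 15 replicate 2 and -0.04 for *Itgb6* without WT day 15 replicate 2. *Itgb8* rests on few reads, with 27 and 20 counts in WT mice and 6 and 4 in null mice (SE 0.82). *Itgb3* measured 43.0 and 62.0 CPM in WT mice and 15.5 and 32.2 in null mice (log2 fold change 1.13, SE 0.39, edgeR, adjusted p = 0.122). *Itgb4* measured 294 and 294 CPM against 336 and 247, and its partner *Itga6* 229 and 189 against 156 and 181. Per kb the ratio of *Itga6* to *Itgb4* was 0.499 and 0.605 in WT day 15 and 0.360 and 0.569 in *Hsf1* null day 15 mice, below the 0.661 to 1.30 of the untreated mice.

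Among syndecans, *Sdc3* measured 68.4 and 79.0 CPM in WT day 15, 39.9 and 42.5 in *Hsf1* null day 15, 59.9 and 46.5 in WT day 0 and 26.4 and 28.7 in *Hsf1* null day 0 mice. All WT mice lay above all *Hsf1* null mice, with log2 fold changes of 0.84 (SE 0.24, edgeR, adjusted p = 0.0821) at day 15 and 0.96 (SE 0.25, adjusted p = 0.774) at day 0. *Sdc4* was lowest in its class at -0.55 (SE 0.46), with 422 and 499 CPM in WT and 971 and 376 in *Hsf1* null day 15 mice, which overlapped. Over the alternatives the log2 fold change of *Sdc4* ran from -1.08 to 0.285, so its direction turned. The collagen receptors *Ddr1* and *Ddr2*, the hyaluronan receptor *Cd44* and the laminin receptor *Dag1* lay between 0.20 for *Ddr1* and 0.66 for *Cd44*. Over the alternatives *Ddr1* ran from -0.20 to 0.60 and *Cd44* from 0.12 to 1.36.

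In the cytoplasmic classes, 9 of 12 members were above 0 at day 15, with 8 higher and 3 lower without overlap in WT mice, against 28.6% and 26.3% of all genes. The 3 lower were *Fermt1* (log2 fold change -0.34), *Parva* (-0.43) and *Ptk2*, the focal adhesion kinase (-0.13). *Parva*, the widely expressed parvin, measured 232 and 185 CPM in WT mice and 307 and 253 in null mice, opposite in direction to *Parvb* (0.77) and *Parvg* (1.46). *Fermt2* measured 33.8 and 37.0 CPM against 18.5 and 24.5 (log2 fold change 0.72, SE 0.26, edgeR, adjusted p = 0.146).

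Markers of other layers were read beside the matrix-binding members at day 15. Fibroblast markers summed to 1783 and 1750.0 CPM in WT mice and 370.1 and 1129 in null mice, with 6 of 6 log2 fold changes above 0 and 0 called by edgeR (2 at an unadjusted p under 0.05). Endothelial markers summed to 216.4 and 202.2 against 49.48 and 109.8 CPM, and *Cdh5* was called higher in WT mice (log2 fold change 2.36, SE 0.46, edgeR, adjusted p = 0.0316). Epithelial markers summed to 15290.0 and 16630.0 against 24020.0 and 21110.0 CPM, lower in WT mice for 8 of 8 without overlap, with 0 called and 0 at an unadjusted p under 0.05. Smooth muscle markers summed to 3717 and 2146 against 5344 and 6122 CPM. The part of these markers in the values of matrix-binding members was not tested.

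At day 0, the genotypes were compared without treatment. Of the members, edgeR called 0 (against 0% of all genes) and DESeq2 0 (against 0.125%), and 6 members had an unadjusted p under 0.05, all higher in WT mice, against 6.29% of all genes (3.93% higher and 2.36% lower). They were *Sdc3*, *Itga5*, *Tln2*, *Dag1*, *Parvb* and *Itgb7*. The log2 fold change was above 0 for 42 of 45 members, against 50.8% of all genes, with a median of 0.39 against 0.01. These rested largely on WT day 0 replicate 1, without which 28 of 45 were above 0 with a median of 0.06. That mouse also stood apart in markers of other cells, with fibroblast markers at 2175 CPM against 614.6 in the second WT mouse and 576.6 and 858.1 in *Hsf1* null mice, and pan-leukocyte markers at 629.9 against 206.8, 319.8 and 216.3. Between genotypes at day 0 edgeR called 0 of 6 fibroblast, 0 of 7 macrophage and 0 of 6 pan-leukocyte markers, with 3, 2 and 0 higher in WT mice at an unadjusted p under 0.05, and their part in the values of the members was not tested. The exceptions among all mice were *Sdc2* (-0.43), *Itga2b* (-0.17) and *Itga6* (-0.13). Without overlap, 16 members were higher and 2 lower, against 18.4% and 18.7% of all genes.

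**Figure D5:**
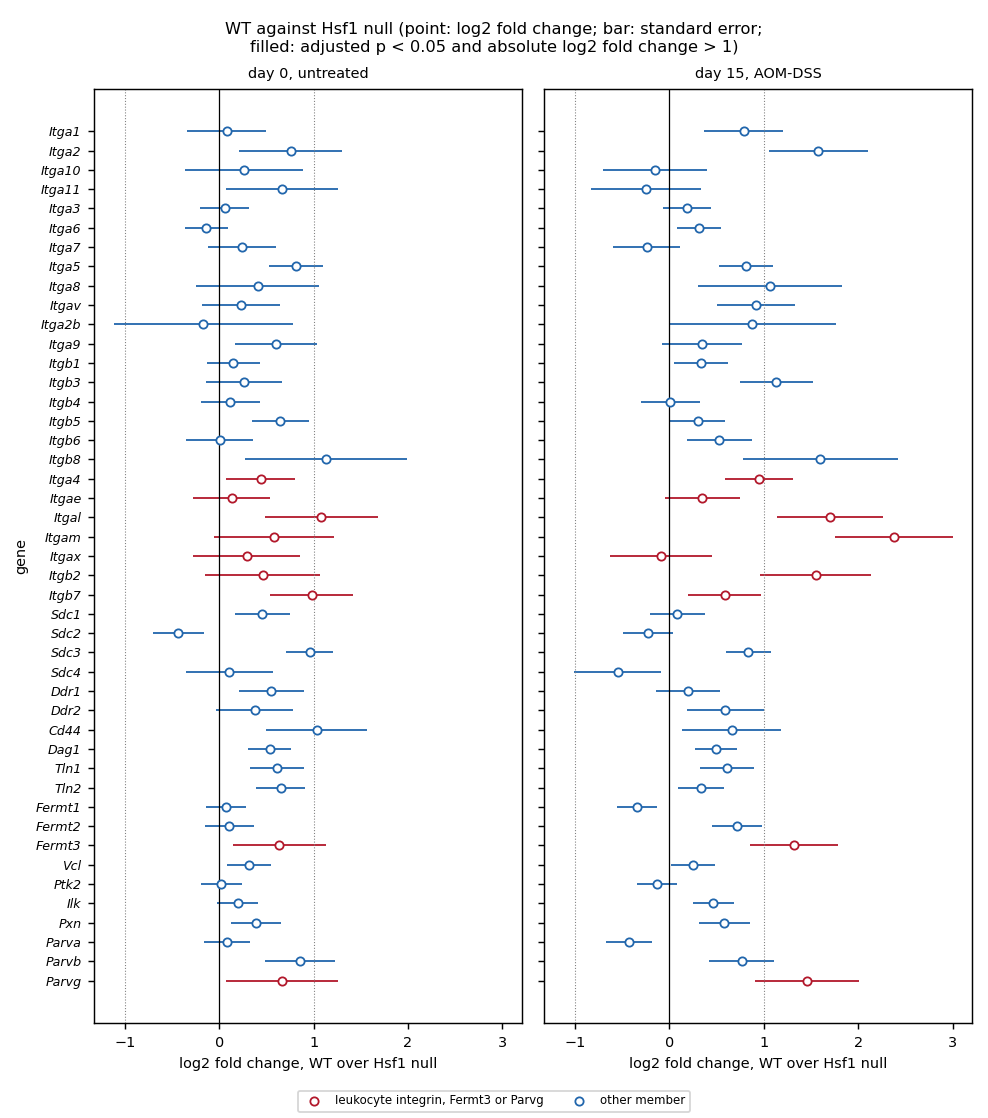
Log2 fold change of WT over *Hsf1* null mice (horizontal axis) for each member (vertical axis) at day 0, left, and day 15, right, with standard errors as bars; red marks leukocyte integrins, *Fermt3* and *Parvg*. No point is filled, since 0 members passed both thresholds, and 42 points at day 0 and 36 at day 15 lie to the right of 0.

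Whether the response to AOM-DSS differed by genotype was tested as an interaction in the model of all groups. Of the 45 members 0 passed, by edgeR and by DESeq2 (which called 0.905% of all genes), and 0 had an unadjusted p under 0.05, where all genes gave 0.00696% called by edgeR and 8.62% at that unadjusted p (3.58% higher and 5.04% lower). The interaction was above 0 for 25 of 45 members, against 49.8% of all genes. *Itgam* had the largest value, 1.80 on the log2 scale (SE 0.88, edgeR, adjusted p = 0.611, and between 0.81 without WT day 15 replicate 2 and 2.64 without WT day 0 replicate 1), and *Itga11* the lowest, -0.91 (SE 0.83). For *Itgb3*, called in WT but not in *Hsf1* null mice, the difference was 0.87 (SE 0.56, edgeR, adjusted p = 0.693). For *Itgb2* it was 1.09 (SE 0.84), for *Fermt3* 0.68 (SE 0.67), for *Fermt2* 0.61 (SE 0.37) and for *Itga8* 0.66 (SE 1.00), none of which passed. With 1 mouse left out these ran from 0.20 to 2.16 for *Itgb2*, 0.09 to 1.59 for *Fermt3*, 0.42 to 0.83 for *Fermt2*, -1.10 to 1.40 for *Itga8* and -1.45 to 0.33 for *Itga11*, so the direction turned for *Itga8* (without WT day 15 replicate 1) and for *Itga11* (without WT day 0 replicate 1).

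Counter-receptors and matrix ligands of the integrins were read from a list of 20 genes. At day 15, 1 was called higher in WT than in *Hsf1* null mice, against 1.25% of all genes. It was *Vcam1*, the endothelial ligand of *Itga4* with *Itgb1*, at 156 and 146 CPM against 11.0 and 32.9 (log2 fold change 2.78, SE 0.55, edgeR, adjusted p = 0.0331). Of the list, 16 of 20 were above 0, against 52.1% of all genes, with a median of 0.87 against 0.035. In WT mice 4 rose from day 0 to day 15 (against 3.47% of all genes), with *Madcam1*, the ligand of *Itga4* with *Itgb7*, at 4.41 and 1.19 CPM before and 18.0 and 52.1 after (log2 fold change 3.44, SE 0.72, edgeR, adjusted p = 0.0245), *Icam1*, the ligand of LFA-1 and Mac-1, at 2.08 on the log2 scale (adjusted p = 0.0356), the basement membrane collagen *Col4a1* at 1.97 (adjusted p = 0.0315) and the laminin chain *Lama5* at 1.38 (adjusted p = 0.0426). In *Hsf1* null mice 2 rose (against 5.3% of all genes), *Lamb3*, a chain of laminin-332, at 1.56 (SE 0.33, edgeR, adjusted p = 0.0211) and *Tgfb1* at 1.35 (SE 0.38, adjusted p = 0.0454). *Madcam1* measured 2.55 and 0.359 CPM before and 9.46 and 10.2 after in *Hsf1* null mice, without overlap, which missed the threshold (log2 fold change 2.42, adjusted p = 0.0571). At day 0 edgeR called 0 of 20 between genotypes (5 at an unadjusted p under 0.05), against 0% and 6.29% of all genes.

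The alpha partners of *Itgb7* are read beside its ligands. *Itga4* measured 61.1 and 37.7 CPM in WT day 0, 71.1 and 101 in WT day 15, 36.6 and 37.0 in *Hsf1* null day 0 and 30.2 and 59.0 in *Hsf1* null day 15 mice, and *Itgae*, whose dimer with *Itgb7* binds E-cadherin, 10.1 and 8.73, 6.87 and 10.9, 8.38 and 8.98 and 6.51 and 7.36 CPM. Neither was called in any comparison. Per kb, the ratio of *Itgae* to *Itgb7* was 0.649 to 2.16 in untreated and 0.170 to 0.225 in treated mice, and that of *Itga4* to *Itgb7* 1.18 to 2.92 and 0.342 to 0.576. The T cell marker *Cd3e* was called higher at day 15 in WT mice (log2 fold change 2.49) and in *Hsf1* null mice (2.75), and its part in the rise of *Itgb7* was not tested.

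A further 35 focal adhesion genes, none of them members, were read in the same fits. In WT mice 5 fell from day 0 to day 15 and 0 rose, against 4.27% and 3.47% of all genes. The falls were led by *Tns4* (log2 fold change -2.71), an epithelial tensin that binds integrin beta tails, *Nedd9* (-1.69), a docking protein of the kinase, and *Cav1* (-1.55), the caveolae protein. In *Hsf1* null mice 5 fell (against 6.48% of all genes), led by *Cav1* (-2.28), the ILK-binding adaptor *Lims1* (-1.59) and the tetraspanin *Cd9* (-1.25). Between genotypes at day 15 edgeR called 0 of 35, against 3.17% of all genes. At an unadjusted p under 0.05, 2 were higher and 1 lower in WT mice, against 11.6% and 11.6% of all genes. At day 0 edgeR called 0, with 6 higher at that unadjusted p, against 3.93% of all genes. The median log2 fold change of the list was 0.21 at day 15 and 0.23 at day 0.

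Of the members, 6 share chromosome 15 with *Hsf1*, and in a mixed strain background alleles near the targeted gene can differ between genotypes. *Ptk2* lies 3.054 Mb from *Hsf1*, *Parvb* 7.73 Mb, *Parvg* 7.822 Mb, *Itgb7* 25.714 Mb, *Itga5* 26.842 Mb and *Sdc2* 43.442 Mb. Their log2 fold changes between genotypes at day 0 were 0.02, 0.86, 0.67, 0.98, 0.81 and -0.43 in that order. Strain alleles were not tested here.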

How the data were processed

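Bulk mRNA-seq was performed on 8 mouse colons, with the SENSE library kit per the labels. The authors deposited raw counts per gene symbol, with STAR, DESeq2 and mm10 named in the submitters' processing notes; the counting program and annotation were not given in the sources used here. The table holds 15859 genes, each with at least 6 counts in at least 1 library. A second table of normalized values was not used. Samples were grouped by genotype, day and replicate number in the sample descriptions.

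Testing covered 14371 genes (mean normalized count above 5) and used edgeR 4.0.16 (R 4.3.3) with the quasi-likelihood test on TMM-normalized counts, in 1 model of 4 groups, with Benjamini-Hochberg adjustment over all genes; the SE is the log2 fold change divided by the root of F. A gene was called past an adjusted p of 0.05 and a log2 fold change of 1 in either direction. Alternatives were DESeq2 1.42.0, its size factors, 2 other filters, a replicate block, no fold threshold, fewer groups, thinning and leaving out each library. The fits were tested on simulated data. CPM per kb used merged exons of GENCODE M21 (GRCm38, which is mm10). With 2 mice per group, outlying mice were not tested for, and the exact test of a single gene cannot reach a small p.

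The members and lists were chosen with earlier results of these data known. Values in each mouse are given for called members, and shorter values for the highest and lowest member of each class in the day 15 genotype comparison and in level, for partner chains and for up to 3 called genes of each list. Itgal, Itga3, Itga4, Itgae, Parvg, Sdc3, Itgb4, Itga6, Ddr1, Cd44 and the other genes outside this rule were added after their values were seen.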

Additional observations from a re-analysis of the deposited data

How the results depend on the processing

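No called member changed direction in the comparison where it was called, under any alternative run. Of 119 log2 fold changes there, fits that leave a group with 1 mouse among them, 88 kept their direction and both thresholds and 31 kept the direction and lost the call. These members were picked by their calls, and the setting without a fold threshold reused the main fit. In other comparisons called members did turn, such as *Itga8* between genotypes at day 15 (-0.68 to 1.81) and *Itgb2* between genotypes at day 0 (-0.61 to 0.96). At day 15 between genotypes, the count of called members was 0 with edgeR and 4 with DESeq2, against 3.17% and 8.33% of all genes. In WT mice from day 0 to day 15 it was 4 with edgeR and 8 with DESeq2, against 7.74% and 12.1% of all genes. It was 2 with only the groups compared in the fit, whose share over all genes is not given here. In *Hsf1* null mice it was 3 with edgeR and 5 with DESeq2, against 11.8% and 15.3% of all genes. In each of these comparisons the calls also moved with single libraries left out, in fits that leave a group with 1 mouse. The cause of these moves was not tested. Of all 45 members, called or not, 14 had log2 fold changes on both sides of 0 over the alternatives between genotypes at day 15, 22 between genotypes at day 0, 11 from day 0 to day 15 in WT mice, 12 in *Hsf1* null mice and 28 for the interaction. Between genotypes at day 0, and for the interaction of genotype and treatment, the count of called members was 0 in all alternatives run. DESeq2 size factors, both other filters and no threshold on the fold change left all 5 counts as they were. Length of the longest transcript in place of merged exons moved the level per kb of *Fermt2* from 7.91 to 12.5, of *Fermt3* from 6.26 to 12.1, of *Itga8* from 0.678 to 0.859, of *Ptk2* from 6.82 to 17.2, of *Pxn* from 25.6 to 55.8 and of *Itga6* from 25.4 to 53.1. Depth limits the genes of few reads: the smallest library allows up to 1.19 CPM behind a count of 0. On simulated counts of the day 15 genotype comparison (14371 genes, 200 changed), edgeR recovered 149 with 8 false calls and DESeq2 160 with 24. The planted log2 fold changes were 2 or 3 in either direction. Members at day 15 had a median of 0.53, and recovery of changes of that size was not simulated.

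Replicate numbers are shared by the groups in the labels, which do not say whether equal numbers mark a shared litter or batch. Correlations of the deviations of same-numbered mice ran from -0.290 to 0.148. The pairs of groups with WT day 0 gave 0.0395, -0.290 and -0.256, and the others 0.109, 0.148 and 0.142. Without a statement in the labels, the numbers were not taken as pairs. With the replicate block the count of called members was 0 between genotypes at day 15, 1 in WT mice and 4 in *Hsf1* null mice from day 0 to day 15 (against 2.39%, 6.04% and 10.5% of all genes), and it changed no other count. Exchanging the numbers of the WT day 0 mice in the block, chosen after seeing the data, gave 5, 8 and 4 called members in these comparisons, against 9.14%, 12.9% and 16% of all genes.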

Other observations

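Further marker lists were read for cell types that whole colon can hold. Of the platelet markers, *Pf4* measured 36.3 and 23.3 CPM in WT day 15 mice, 2.95 and 13.8 in *Hsf1* null day 15 mice and 7.88 to 15.9 in untreated mice, and *Gp1bb* 2.87 to 10.0 CPM in all mice, with 0 of the 2 tested called by edgeR in any comparison. Markers of enteric neurons and glia summed to 93.17 and 57.45 CPM in WT day 15 and 153.9 and 95.50 in *Hsf1* null day 15 mice, against 48.12 to 67.83 in untreated mice, and 1 of 5 was called, *Uchl1*, higher at day 15 in *Hsf1* null mice (log2 fold change 1.40). *Uchl1* made up most of that sum, and 3 of the 5 were lower without overlap at day 15 in either genotype, with medians of -0.46 in WT and -0.88 in *Hsf1* null mice. Skeletal muscle markers summed to 19.96 to 42.66 CPM and moved in both directions: of 5 tested, 1 fell with treatment in WT mice, 1 rose and 1 fell with it in *Hsf1* null mice, and 1 was called higher in WT than in *Hsf1* null mice at day 15 (*Cacna1s*, at 0 and 0.267 CPM in the null mice), where 2 of 5 were above 0 with a median of -1.03. Squamous epithelial markers were at or under 1.078 CPM in untreated mice and at 3.878 to 17.92 CPM in treated mice, and of 2 tested, 1 was called higher at day 15 in WT and 2 in *Hsf1* null mice. Adipocyte markers differed between mice of a group, with 110.9 and 38.11 CPM in WT day 0 and 2.947 and 58.71 in *Hsf1* null day 15 mice, and edgeR called 0 of 3 in any comparison.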
